A study of Mus musculus with 8 samples.

Results

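The genes described here are 34 zonated genes of the mouse liver and of the Wnt/β-catenin pathway that patterns it, taken from a table of 19642 genes that compares N-LKO with WT livers under a chow diet (CD). They were chosen by symbol, as 14 pericentral genes, 4 components of the Wnt pathway and 16 periportal genes. The pericentral genes were glutamine, glutamate and transport genes, Wnt targets and Rgn. The periportal genes were those of the urea cycle and amino acid breakdown, with a few other periportal genes. All 34 symbols were in the table. RNA was sequenced from whole liver of 4 WT and 4 N-LKO mice, numbered here as the labels number the biological replicates. All mice were male, on a C57BL6 background and on CD, and no mouse received a further agent. The sample titles give 8 weeks for the diet, as does a published legend on chow-fed livers, whereas the treatment entries give 16, so the labels disagree on its length, and no age beyond age matching is given. N-LKO mice lack NgBR (gene Nus1), a subunit of the cis-prenyltransferase that makes the dolichol carrier of protein glycosylation, in the cells in which an albumin promoter drives Cre, that is mainly hepatocytes. The labels call the controls WT and do not say whether they carried the loxP-flanked allele or Cre.

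In the liver lobule, blood enters at the portal vein and leaves at the central vein, and hepatocytes along this path express different enzymes. Periportal hepatocytes take up amino acids and turn ammonia into urea, whereas the thin layer of pericentral hepatocytes traps the ammonia that escapes and fixes it into glutamine. Wnt ligands and R-spondin released by endothelial cells of the central vein stabilise β-catenin in neighbouring hepatocytes, which turns on the pericentral genes and keeps periportal genes low there.

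Total counts per library were 15430519 to 18412201 in WT and 14688404 to 18585412 in N-LKO livers. Nus1 was at 82.0 to 90.5 CPM (read counts scaled to library size after TMM normalization) in WT and at 33.3 to 38.7 CPM in N-LKO livers, so each library went with its label. Of 10 hepatocyte markers 0 were called by edgeR and 1 by DESeq2, with 1 at an unadjusted p of edgeR under 0.05, and their summed level was 84135 to 102250 CPM in WT and 80452 to 100950 CPM in N-LKO livers, the samples being liver by these genes. Genes were called where the quasi-likelihood test of edgeR gave an adjusted p (Benjamini-Hochberg over all 14214 genes tested) under 0.05, log2 fold changes are N-LKO minus WT, and SE is their standard error. Every fold below comes from that fit, and all levels are CPM unless another scale is named. In whole liver RNA, fewer cells of a zone and less RNA per cell cannot be told apart.

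Of the 34 genes, 33 passed the filter on low counts, and 2 of these were called, both pericentral and both higher in N-LKO livers. They were Rhbg, an ammonia transporter, and Slc13a3, a carrier of dicarboxylates. Among all genes tested 1.04% were called in either direction and 0.823% were called higher. The 4 Wnt pathway components and the 16 periportal genes held 0 genes called by edgeR or DESeq2. An unadjusted p of edgeR under 0.05 was reached by 4 of the 13 tested pericentral genes (Rhbg, Slc13a3, Glul and Slc1a2), all with N-LKO higher. It was reached by 0 of the components, the lowest being 0.113 for Tcf7l2. Of the periportal genes 2 reached it, Gldc and Cdh1, both with N-LKO higher. Among all genes tested 12.8% reached it in either direction and 6.87% with N-LKO higher. No overlap between the genotypes, with all N-LKO livers above all WT livers, was seen for 6 genes (Rhbg, Slc13a3, Glul, Ctnnb1, Cdh1 and Gldc), against 4.20% of all genes tested with N-LKO higher, 3.32% with N-LKO lower and 7.52% in either direction. DESeq2 called Glul besides Rhbg and Slc13a3, that is 3 of the genes, against 2.43% of the 16209 genes it gave an adjusted p. Scaling by library totals alone left 4 of these without overlap, and Ctnnb1 and Cdh1 then overlapped. The plot of fold changes shows these genes at the upper end of each group.

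**Figure D1:**
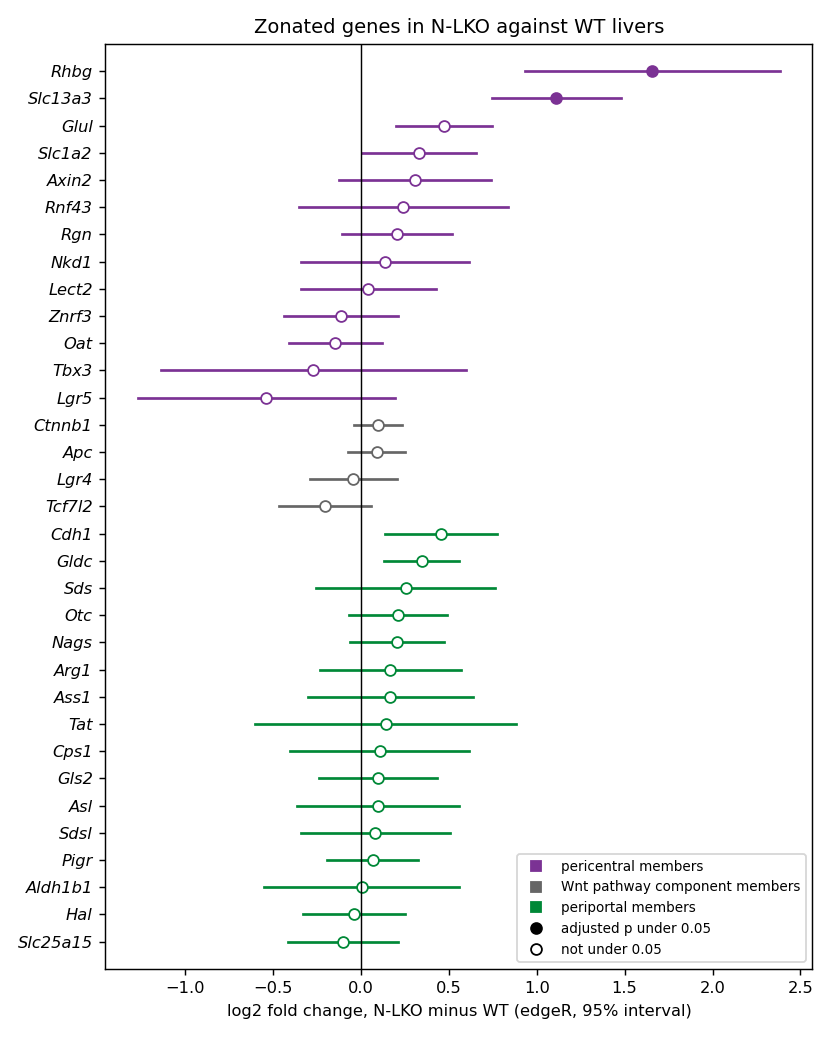
Log2 fold change (N-LKO minus WT, horizontal axis) of the 33 tested genes with its 95% interval from edgeR's fit, ordered by size within the pericentral genes, the Wnt pathway components and the periportal genes (vertical axis). Filled points have an adjusted p under 0.05, and these are Rhbg and Slc13a3 alone; the urea cycle genes lie close to 0 with intervals across it.

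The pericentral genes of glutamine, glutamate and ammonia handling and transport (Glul, Oat, Slc1a2, Rhbg, Slc13a3 and Rgn) held both called genes, and 5 of the 6 had a log2 fold change above 0. Rhbg (minus strand of chromosome 3, 88242874 to 88254709 on GRCm38) was at 0.908, 2.13, 2.16 and 1.55 CPM in WT livers 1 to 4. In N-LKO livers 1 to 4 it was at 7.14, 3.04, 6.77 and 4.07 CPM. The WT livers all lay below the lowest N-LKO liver, and N-LKO 1 and 3 stood above the other N-LKO livers. Its counts were low, 17 to 34 in WT and 46 to 126 in N-LKO livers. The means were 1.68 ± 0.588 (SD, n = 4) and 5.26 ± 2.01 CPM (SD, n = 4), with a log2 fold change of 1.66 (SE 0.329, adjusted p = 0.0429 from edgeR). This call held without N-LKO 2 and was lost when any of the other 7 mice was left out, with adjusted p values of edgeR of up to 0.139. Over all 8 of these fits the log2 fold change lay between 1.44 and 1.85. The call was also lost with limma-voom (adjusted p = 0.0801) and with at least 10 counts required in every mouse (adjusted p = 0.0525 from edgeR). It was lost too with blocks by replicate number or library name (adjusted p = 0.0970 and 0.0715 from edgeR). Rhbg shares 1190 exon bases with Gm38392, a gene model on the same strand, so the split of reads between them is uncertain. Gm38392 was at 0.174 ± 0.347 (SD, n = 4) in WT livers and 0.666 ± 0.371 (SD, n = 4) in N-LKO livers, in CPM. Its counts were 13 in WT 1 and 0 in WT 2, 3 and 4, so its WT mean rests on WT 1, the liver with the lowest Rhbg. In N-LKO livers its counts were 4 to 16.

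Slc13a3 (minus strand of chromosome 2, 165405028 to 165473230) was at 3.42, 2.81, 3.17 and 3.97 CPM in the 4 WT livers. The 4 N-LKO livers had 7.82, 5.41, 7.76 and 8.01 CPM. The genotypes were well apart, with N-LKO 2 the lowest of its group and still above each WT liver. Its counts were low, 45 to 72 in WT and 82 to 138 in N-LKO livers, for Slc13a3 as for Rhbg. The log2 fold change was 1.11 (SE 0.167, adjusted p = 0.0109 from edgeR), a rise of 2.16-fold with a 95% interval of 1.67 to 2.79. Slc13a3 was called in each of the 8 fits without 1 mouse, with adjusted p values of edgeR up to 0.0448. The call was lost with a block by library name (adjusted p = 0.0514 from edgeR).

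Glul encodes glutamine synthetase, the enzyme that joins ammonia to glutamate in the last cells before the central vein, and occupies 153899944 to 153909723 of chromosome 1 on its plus strand. Its WT levels were 692, 835, 817 and 798 CPM, and its N-LKO levels were 1153, 896, 998 and 1315 CPM. No N-LKO liver came down to the WT range, the gap being narrow between N-LKO 2 and WT 2. The log2 fold change was 0.47 (SE 0.124), and the adjusted p of 0.124 from edgeR missed the threshold, whereas DESeq2 gave 0.0161. The 95% interval of the fold ran from 1.15 to 1.68. With 1 mouse left out the adjusted p of edgeR was 0.0554 to 0.256.

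Oat, ornithine aminotransferase, which links ornithine to glutamate and shares the pericentral layer with Glul, overlapped between the genotypes. It was at 1086, 1490, 1154 and 1163 CPM in WT livers and at 1168, 951, 1123 and 1182 CPM in N-LKO livers. WT 2 was the highest and N-LKO 2 the lowest of the 8 livers, with a log2 fold change of -0.15 (95% interval -0.41 to 0.12, adjusted p = 0.667 from edgeR). Slc1a2, the glutamate carrier of these cells, had a log2 fold change of 0.33 with a 95% interval of 0.0030 to 0.65 and an adjusted p of 0.388 from edgeR. Its range of 192.3 to 285 CPM in N-LKO livers overlapped the WT range of 162 to 227 CPM. Rgn, regucalcin, was at 230 to 330 CPM in WT and 265 to 389 CPM in N-LKO livers, and it had a log2 fold change of 0.21 and an adjusted p of 0.597 from edgeR.

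**Figure D2:**
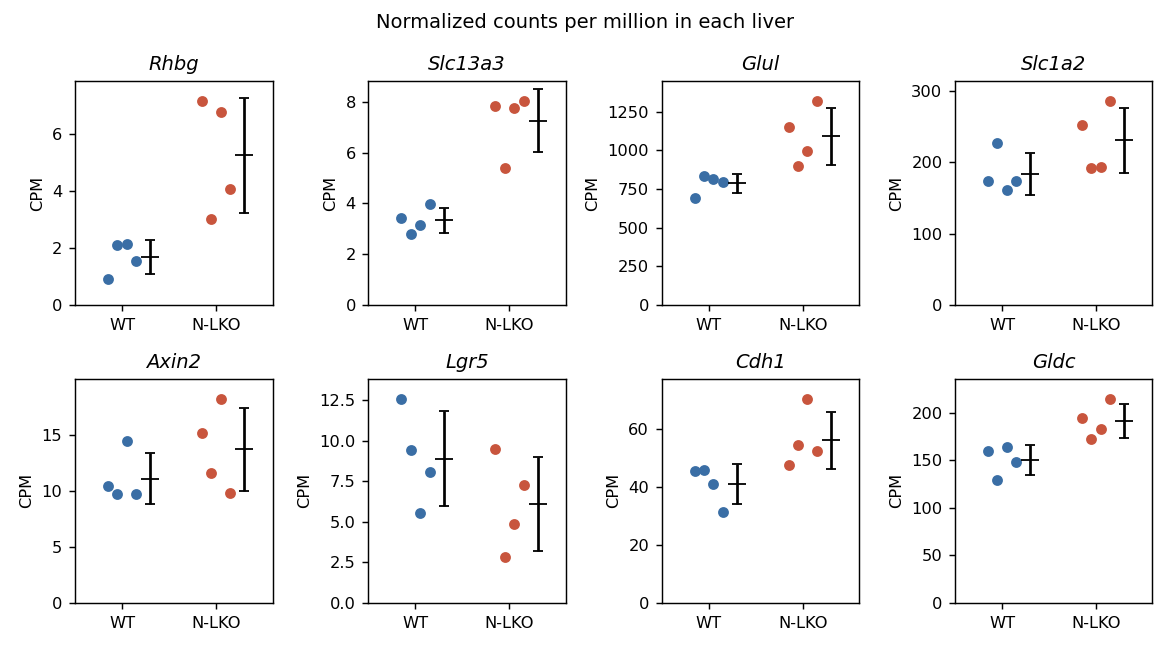
CPM (vertical axes, linear and starting at 0) of 8 genes in each WT and N-LKO liver, points in the order of the replicate numbers, with the group mean and SD (n = 4) as a bar to the right. Rhbg, Slc13a3, Glul, Cdh1 and Gldc have no overlap between genotypes, and Slc1a2, Axin2 and Lgr5 overlap.

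Of the Wnt feedback and target genes none was called. Of 8 such genes (Lgr5, Axin2, Tbx3, Lect2, Rnf43, Znrf3, Nkd1 and Sp5), 7 were tested and 0 were called by edgeR, with 0 at an unadjusted p under 0.05 and 0 called by DESeq2. Log2 fold changes ran from -0.54 for Lgr5 to 0.31 for Axin2, with 4 of 7 above 0 and a median of 0.042, against -0.0033 for all genes tested.

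Axin2, a scaffold of the β-catenin destruction complex and a general target of the pathway, was at 10.4, 9.76, 14.5 and 9.71 CPM in WT livers. In N-LKO livers it was at 15.1, 11.6, 18.2 and 9.85 CPM. WT 3 lay among the higher N-LKO values, and N-LKO 4 was level with the lower WT livers. The log2 fold change of 0.31 had a 95% interval of -0.12 to 0.74 (adjusted p = 0.558 from edgeR). Axin2 shares 209 exon bases with Gm11670 on the other strand.

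Lgr5, a receptor for R-spondins found on hepatocytes beside the central vein, was at 12.6, 9.44, 5.52 and 8.06 CPM in WT livers. N-LKO livers had 9.47, 2.84, 4.84 and 7.27 CPM. The values overlapped and varied widely, over 2.28-fold within WT and 3.34-fold within N-LKO livers. For Lgr5 the log2 fold change of -0.54 had a 95% interval of -1.27 to 0.19 (adjusted p = 0.548 from edgeR), so that a fall to 0.414 of the WT level and a rise to 1.14 times that level both lie within the error.

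The transcription factor Tbx3 varied over 3.74-fold among the WT livers, from 23.4 to 87.6 CPM, and had 28.2 to 70.5 CPM in N-LKO livers. A log2 fold change of -0.27 turned to 0.074 without WT 3. Lect2, a secreted factor, had a log2 fold change of 0.042 with levels of 24.6 to 37.4 CPM in WT and 22.8 to 39.5 CPM in N-LKO livers. The ubiquitin ligases Rnf43 and Znrf3, which remove Wnt receptors from the cell surface, were at 0.24 and -0.12, and the inhibitor Nkd1 was at 0.14, all as log2 fold changes. Adjusted p values of edgeR for these 5 genes were 0.774 or more. Sp5, a transcription factor induced by Wnt, had 1 to 13 counts in WT and 7 to 19 in N-LKO livers and was not tested. Its level was 0.467 ± 0.320 (SD, n = 4) in WT livers and 0.691 ± 0.382 (SD, n = 4) in N-LKO livers, both in CPM, with overlapping values, and no difference was detectable at this depth.

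Promoter sequences were looked at for the members that had one. RefSeq promoters on GRCm38.p6 were in the table used here for 21 of the 34 genes. Rhbg and Cdh1 were not among them, so the promoter of 1 of the 2 called genes was not analysed here. The 250 bases before each start site were searched on both strands for the motifs bound by TCF/LEF factors, the partners of β-catenin, which were CTTTGAA or its variant CTTTGAT, besides the forms CTTTGTA or likewise CTTTGTT. A match was present for 3 of 9 pericentral genes (33.3%; Sp5, Slc1a2 and Lect2), 1 of 3 Wnt components (Tcf7l2) and 2 of 9 periportal genes (22.2%; Hal and Nags), and for 16.8% of the 27025 genes in that table. The 3 stretches below, in lower case from 5′ to 3′ with any match in capitals, are shown to set the called gene Slc13a3 and the non-overlapping Glul, neither of which held a match in the 250 bases, beside Lect2, which held 1 match and was not called. They are chr2:165473231-165473447 on the minus strand for Slc13a3, without the bases that lie in the annotated transcript, chr1:153899679-153899928 on the plus strand for Glul, and chr13:56548539-56548788 on the minus strand for Lect2.
Slc13a3: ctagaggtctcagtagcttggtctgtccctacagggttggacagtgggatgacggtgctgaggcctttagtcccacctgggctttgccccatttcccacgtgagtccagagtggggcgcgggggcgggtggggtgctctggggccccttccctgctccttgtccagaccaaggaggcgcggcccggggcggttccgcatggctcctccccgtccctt
Glul: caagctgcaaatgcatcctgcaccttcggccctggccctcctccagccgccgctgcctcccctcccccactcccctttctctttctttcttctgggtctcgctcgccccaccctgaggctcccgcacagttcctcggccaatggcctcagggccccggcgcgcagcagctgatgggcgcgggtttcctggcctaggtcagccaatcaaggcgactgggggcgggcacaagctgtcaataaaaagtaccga
Lect2: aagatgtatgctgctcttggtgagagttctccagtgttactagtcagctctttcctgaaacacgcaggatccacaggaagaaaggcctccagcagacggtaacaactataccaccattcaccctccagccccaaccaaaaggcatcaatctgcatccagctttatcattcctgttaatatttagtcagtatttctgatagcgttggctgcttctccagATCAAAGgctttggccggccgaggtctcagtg
The capitals in Lect2 mark ATCAAAG, which is CTTTGAT on the other strand and begins at position -32 from the start site. The windows of Slc13a3 and Glul were rich in G and C (67.6% and 64.8%), against 48.0% for Lect2. A match is a description of the letters and not a binding site, and its absence concerns this window alone.

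The 4 Wnt pathway components that act in every hepatocyte differed little between genotypes. Ctnnb1, which encodes β-catenin, was at 136, 131, 128 and 129 CPM in WT livers and at 138, 145, 141 and 137 CPM in N-LKO livers. The lowest N-LKO liver exceeded the highest WT liver, but the difference was small, with a log2 fold change of 0.096 (95% interval -0.041 to 0.23, adjusted p = 0.569 from edgeR), and the genotypes overlapped when libraries were scaled by their totals. It shares 782 exon bases with Ulk4 and a microRNA gene. Apc, a scaffold of the destruction complex that sets the border between the zones, had a log2 fold change of 0.089 with 50.8 to 52.6 CPM in WT and 49.4 to 59.1 CPM in N-LKO livers. Tcf7l2, the TCF factor of the liver, was at -0.20 (95% interval -0.47 to 0.057), and the R-spondin receptor Lgr4 at -0.043 (95% interval -0.29 to 0.20), also as log2 fold changes. Adjusted p values of edgeR were 0.521 or more for all 4.

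The urea cycle genes showed no call in either direction. All 7 (Cps1, Otc, Ass1, Asl and Arg1, the activator gene Nags, and the ornithine carrier gene Slc25a15) were tested, 0 were called by edgeR or DESeq2, and 0 had an unadjusted p of edgeR under 0.05. Log2 fold changes ran from -0.10 for Slc25a15 to 0.21 for Otc, with a median of 0.17. This median was 0.038 without N-LKO 1 and 0.29 without WT 2, and 0.13 with library totals.

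Cps1, carbamoyl phosphate synthetase, commits ammonia to the cycle. It was at 8152, 9287, 4253 and 4982 CPM in WT livers and at 8156, 6322, 6783 and 7438 CPM in N-LKO livers. WT 2 lay above the highest N-LKO liver, WT 1 was level with it, and WT 3 and 4 lay below the lowest, so the WT group enclosed the N-LKO group. The log2 fold change was 0.11 (adjusted p = 0.898 from edgeR), and its 95% interval, a fold of 0.756 to 1.53, leaves room for changes of either sign. It was -0.060 without WT 3.

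Ass1, argininosuccinate synthase, was at 724, 1180, 719 and 643 CPM in WT livers. N-LKO livers had 1156, 635, 903 and 972 CPM, and both groups spanned nearly the same range. Its log2 fold change was 0.17 (95% interval -0.30 to 0.64). Arg1, arginase, which releases urea, was at 2220, 2347, 1599 and 1396 CPM in WT and 2665, 1857, 1909 and 2060 CPM in N-LKO livers. WT 1 and 2 were again the higher WT livers, and the log2 fold change was 0.17 (95% interval -0.23 to 0.57). Otc, ornithine transcarbamylase, was at 198, 263, 249 and 246 CPM in WT and 296, 216, 281 and 314 CPM in N-LKO livers. Among the N-LKO livers, 3 were above each WT liver and N-LKO 2 was not, with a log2 fold change of 0.21 (95% interval -0.067 to 0.49, adjusted p = 0.533 from edgeR). Asl, argininosuccinate lyase, had a log2 fold change of 0.096 and Nags of 0.20, and with Slc25a15 they all overlapped between genotypes. Nags shares 443 exon bases with an antisense gene.

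The other periportal genes break down amino acids or mark periportal hepatocytes, and 0 of these 9 were called by edgeR or DESeq2, with 2 (Gldc and Cdh1) at an unadjusted p of edgeR under 0.05. Gls2, the liver glutaminase that feeds ammonia from glutamine to Cps1, was at 137, 195, 158 and 134 CPM in WT livers and at 194, 128, 155 and 191.8 CPM in N-LKO livers. The ranges were nearly the same, with a log2 fold change of 0.098 (95% interval -0.24 to 0.43). Sds, serine dehydratase, was at 64.8, 94.4, 80.7 and 46.2 CPM in WT and 103, 56.8, 75.6 and 105 CPM in N-LKO livers. N-LKO 1 and 4 were above each WT liver, N-LKO 2 and 3 were not, and the log2 fold change was 0.25 (95% interval -0.26 to 0.76). Sds shares 501 exon bases with genes on the other strand.

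Gldc, the decarboxylase of the glycine cleavage system, was at 160, 129, 165 and 149 CPM in WT livers. Its N-LKO levels were 194, 173, 183 and 214 CPM. No N-LKO liver fell into the WT range, and this also held with library totals. The log2 fold change was 0.34 (SE 0.0969, adjusted p = 0.156 from edgeR, 0.0604 from DESeq2), with a fold interval of 1.09 to 1.47.

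Cdh1, E-cadherin, a junction protein of periportal hepatocytes that bile duct cells also make, was at 45.5, 45.8, 41.1 and 31.1 CPM in WT livers. In N-LKO livers it was at 47.5, 54.3, 70.1 and 52.1 CPM, with N-LKO 3 the highest. The groups came close at N-LKO 1 and did not overlap, with a log2 fold change of 0.46 (SE 0.144, adjusted p = 0.201 from edgeR). Of 11 cholangiocyte markers tested 3 were called higher (Epcam, Bicc1 and Spp1), against 0.823% of all genes. Log2 fold changes were above 0 for 9 and below 0 for 2. At an unadjusted p of edgeR under 0.05 stood 5 with N-LKO higher and 1 with N-LKO lower, against 6.87% and 5.90% of all genes. All N-LKO livers were above all WT livers for 4, against 4.20% of all genes. DESeq2 called 5 genes of the list, against 2.43% of the genes it gave an adjusted p. Krt23 was the lowest, at -0.82. Epcam and Spp1 were called in 2 of 8 fits without 1 mouse each, and not with limma-voom (adjusted p = 0.0621 and 0.0520). The summed level of the 15 markers in the table was 236 to 294 CPM in WT and 281 to 363 CPM in N-LKO livers. Krt19, a defining marker named after its values were seen, was at 0.375 to 0.748 CPM in WT and 0.815 to 1.06 CPM in N-LKO livers. This rested on 6 to 14 counts in WT and 12 to 18 in N-LKO livers, and Krt19 was not called (adjusted p = 0.428 from edgeR). Cftr and Cldn4 had 0 counts in at least 1 WT liver. Epcam was likewise highest in N-LKO 3, at 4.84 CPM. The part of the bile duct cells in the level of Cdh1 was not tested.

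The remaining periportal genes Hal, Sdsl, Tat, Aldh1b1 and Pigr had log2 fold changes of -0.040 to 0.14, each overlapping between genotypes. Tat, tyrosine aminotransferase, which responds to glucocorticoids and fasting, spanned 882 to 2890 CPM in WT livers, a 3.28-fold range, and 1249 to 2379 CPM in N-LKO livers. Pigr, the polymeric immunoglobulin receptor, had levels within 1.09-fold in WT livers and a log2 fold change of 0.065 (95% interval -0.19 to 0.32).

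Set against each other, the pericentral and periportal genes of the set did not separate the genotypes. The mean log2 CPM of the 13 tested pericentral genes was 4.68, 4.97, 5.08 and 4.95 in WT livers and 5.39, 4.84, 5.28 and 5.19 in N-LKO livers. That of the 16 periportal genes was 7.97, 8.27, 7.82 and 7.65 in WT and 8.27, 7.84, 8.00 and 8.23 in N-LKO livers. Both zones were thus highest in N-LKO 1 and lowest in N-LKO 2 of that group, while in WT livers they did not rank alike. The pericentral minus the periportal mean was -3.01 ± 0.33 (SD, n = 4) for the WT group and -2.91 ± 0.14 (SD, n = 4) for the N-LKO group. This gap of 0.10 lay within the spread of the WT livers, and all 4 N-LKO livers fell inside the WT range of -3.30 to -2.70. Without Rhbg and Slc13a3, an alternative chosen after seeing the data, the difference was -0.093. With WT 2 left out it was 0.0046 and with WT 4 left out it was 0.20. By single genes, the median log2 fold change was 0.21 for the pericentral genes, with 9 of 13 above 0, and 0.12 for the periportal genes, with 14 of 16 above 0. Of all genes tested 49.3% were above 0. These medians also moved with single mice, from 0.10 without WT 1 to 0.31 without N-LKO 2 for the pericentral genes and from 0.037 without N-LKO 1 to 0.28 without WT 2 for the periportal genes.

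**Figure D3:**
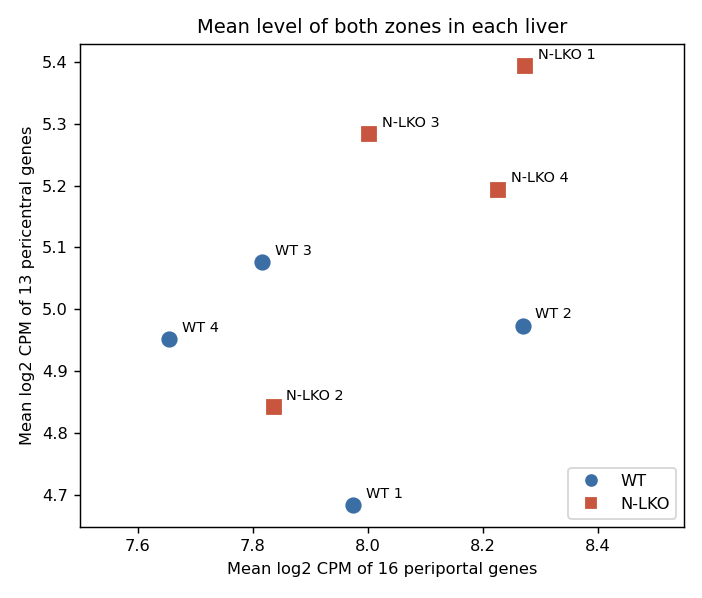
Mean log2 CPM of the 13 pericentral genes (vertical axis) against that of the 16 periportal genes (horizontal axis) in each liver, WT as circles and N-LKO as squares. N-LKO 1, 3 and 4 are above every WT liver on the pericentral axis and N-LKO 2 is not, and on the periportal axis the genotypes are mixed.

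Values varied more from mouse to mouse in the periportal and pericentral genes than over the whole table, and less in the Wnt components. The median SD of log2 CPM within WT livers was 0.31 for the periportal genes, 0.36 for the urea cycle genes, 0.27 for the pericentral genes and 0.12 for the Wnt components, against 0.18 for all genes tested. It was 0.30 and 0.29 for other pericentral and other periportal hepatocyte genes. Within N-LKO livers the median SD was 0.24 for the periportal and likewise for the urea cycle genes, and 0.28 for the pericentral genes. There it was 0.13 for the Wnt components and 0.19 for all genes tested, so by these medians the periportal genes varied less than the pericentral genes in that group. The lists differ in level, with low counts for some pericentral genes, and were not matched for it. The part of sampling noise in these SDs was not tested. The same mice stood at the ends for many periportal genes. WT 2 was the highest WT liver for 13 of 16 periportal genes, WT 4 was the lowest for 10, and N-LKO 2 was the lowest N-LKO liver for 12. Among all genes tested these mice held those places for 25.9%, 21.1% and 27.2%. N-LKO 2 was also the lowest of its group for 9 of 13 pericentral genes. For the urea cycle, the summed level was 12736, 14710, 7839 and 8288 CPM in WT livers and 13823, 10127, 11075 and 12064 CPM in N-LKO livers, so that the highest and the lowest sums were both WT. The genes of a zone share libraries and regulation and are not independent counts.

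**Figure D4:**
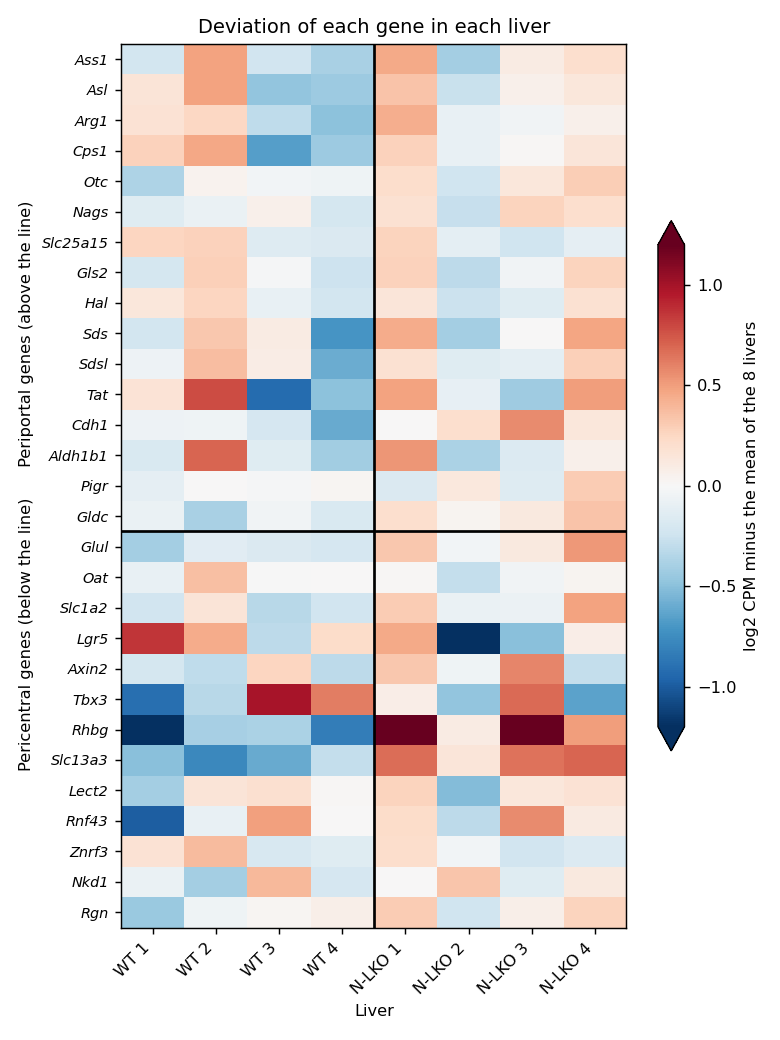
Deviation of log2 CPM from the mean of the 8 livers (colour, red above and blue below) for the 16 periportal genes above the line and 13 pericentral genes below it (rows) in each liver (columns); colours are capped at the ends of the bar, and Sp5 and the Wnt components are not shown. Periportal genes are mostly red in WT 2 and blue in WT 4 and N-LKO 2, and Rhbg and Slc13a3 change colour between genotypes.

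Per length, as mean CPM per kilobase of exon, the order of the genes in WT livers was led by Cps1 (1200 ± 438), Arg1 (849 ± 208), Tat (712 ± 370), Oat (518 ± 76.7), Ass1 (338 ± 102), Pigr (284 ± 11.2) and Glul (236 ± 19.3), each with its SD over 4 mice. Cps1 to Pigr overlapped from each gene to the next, and Pigr was above Glul in every WT liver. By the means of the N-LKO livers Glul stood above Pigr in the place after Ass1, at 328 ± 55.2 CPM per kilobase. At the low end stood Rhbg (0.869 ± 0.304), Lgr5 (0.866 ± 0.286), Slc13a3 (0.641 ± 0.0935), Nkd1 (0.518 ± 0.135) and Sp5 (0.222 ± 0.152), all in CPM per kilobase in WT livers. Rhbg, Lgr5, Slc13a3 and Nkd1 overlapped from each gene to the next, whereas Znrf3 was above Rhbg and Nkd1 above Sp5 in every WT liver. Both called genes thus belonged to the least abundant RNAs of the set, and Rhbg went from place 30 to place 26 in N-LKO livers.

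Genes of the same zones and pathways outside the set were given the same fit. Of 25 other pericentral hepatocyte genes 0 were called by edgeR. At an unadjusted p of edgeR under 0.05 stood 9 with N-LKO higher and 3 with N-LKO lower, against 6.87% and 5.90% of all genes tested. DESeq2 called 2 (Aldh1a1 and Cyp3a11), against 2.43% of the genes it gave an adjusted p. The list's median log2 fold change was 0.21, and 0.13 without WT 1, 0.14 without WT 3 and 0.13 without N-LKO 4. Its summed level was 12723 to 15957 CPM in WT and 13569 to 19547 CPM in N-LKO livers, with overlapping ranges. Aldh1a1, a retinal dehydrogenase, was at 562 ± 117 (SD, n = 4) and 839 ± 83.0 CPM (SD, n = 4) for WT and N-LKO, with a log2 fold change of 0.58 (adjusted p = 0.105 from edgeR and 0.00691 from DESeq2). Its levels did not overlap, at 447 to 703 CPM in WT and 738 to 931 CPM in N-LKO livers. The drug-metabolising P450 genes Cyp3a11 and Cyp2a5 had log2 fold changes of 0.81 and 1.06 (adjusted p = 0.106 and 0.152 from edgeR, 0.00251 and 0.141 from DESeq2). Both overlapped between genotypes, with N-LKO 2 inside the WT range. Cyp2e1, a pericentral P450 named after its values were seen, had a log2 fold change of 0.11. Of the list 16 genes had log2 fold changes above 0 and 9 below, the lowest being -0.53 for Cyp2c37.

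Of the 20 other periportal genes listed 19 were tested, and 1 was called, lower in N-LKO livers, against 0.218% of all genes called lower. This was Hsd17b6, a hydroxysteroid dehydrogenase, at 34.6, 65.2, 63.9 and 82.6 CPM in WT and 19.7, 14.0, 18.9 and 30.8 CPM in N-LKO livers. The groups did not overlap, with a log2 fold change of -1.56 (SE 0.272, adjusted p = 0.0223 from edgeR), and the call was lost without WT 2, WT 3, WT 4, N-LKO 1 or N-LKO 3 (adjusted p of edgeR up to 0.0865). The list's median log2 fold change was -0.23, with 15 of 19 below 0, whereas 14 of the 16 periportal genes of the set were above 0; no test was made between the lists. The list's median was -0.10 without WT 2, and the periportal genes of the set above 0 numbered 10 of 16 without WT 3 and also without WT 4. The summed level of the 19 listed genes did not overlap, at 24860 to 30630 CPM in WT and 21459 to 24095 CPM in N-LKO livers. Agxt, which detoxifies glyoxylate, was at -0.57 (adjusted p = 0.0762 from edgeR and 0.00356 from DESeq2) and Apoa4, a lipoprotein component, at -0.68 (adjusted p = 0.196 from edgeR and 0.0283 from DESeq2), as log2 fold changes, so that DESeq2 called 3 genes of the list.

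The ligands and other genes of the Wnt pathway numbered 51, of which 39 were tested and 1 was called higher, against 0.823% of all genes. Log2 fold changes were above 0 for 24 and below 0 for 15, the lowest being -0.38 for Fzd5. An unadjusted p of edgeR under 0.05 was reached by 3 with N-LKO higher and 1 with N-LKO lower, against 6.87% and 5.90% of all genes. Wnt2 and Wnt9b, the ligands of liver endothelium, and Rspo3, the R-spondin of the central vein, had log2 fold changes of 0.25, 0.39 and -0.12 and overlapped between genotypes. These 3 stood on the list and were named after their values were seen. The called gene was Dkk3, a secreted member of the Dickkopf family, at 1.496, 2.00, 1.71 and 1.32 CPM in WT and 4.31, 4.29, 7.03 and 4.69 CPM in N-LKO livers. It was higher in each N-LKO liver, with a log2 fold change of 1.64 (SE 0.218, adjusted p = 0.00595 from edgeR), and called in all 8 fits without 1 mouse. Frzb, a secreted Wnt binding protein, and Amer1, a partner of APC, had log2 fold changes of 0.91 and 0.42 (adjusted p = 0.257 and 0.298 from edgeR). Both overlapped between genotypes. Of 12 stellate cell and fibroblast markers 3 were called higher (Lum, Eln and Col1a1), against 0.823% of all genes, and DESeq2 called 5, against 2.43%. At an unadjusted p of edgeR under 0.05 stood 8 with N-LKO higher, against 6.87% of all genes, and 0 with N-LKO lower. All N-LKO livers were above all WT livers for 5, against 4.20% of all genes. Their median log2 fold change was 0.74, and 2 were below 0, the lowest being -0.15 for Lrat. The summed level of these markers was 223 to 322 CPM in WT and 314 to 434 CPM in N-LKO livers. Their part in the level of Dkk3 was not tested. Of 14 endothelial markers 0 were called by edgeR or DESeq2 and 1 had an unadjusted p of edgeR under 0.05, with sums of 270 to 313 CPM in WT and 247 to 296 CPM in N-LKO livers.

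Among 43 tested genes of nitrogen and amino acid metabolism outside the set 0 were called by edgeR, 9 had an unadjusted p under 0.05, against 12.8% of all genes tested, and DESeq2 called 1 (Agxt). Their median log2 fold change was 0.0032. Besides Agxt, which stood on both lists, the lowest unadjusted p values belonged to Amdhd1 of histidine breakdown, with a log2 fold change of -0.32 (adjusted p = 0.161 from edgeR), and Gpt2, the mitochondrial alanine aminotransferase, with 0.25 (adjusted p = 0.241 from edgeR). Of 20 regulators of zonated and amino acid genes 1 was called higher, against 0.823% of all genes. The list's median log2 fold change was 0.016, with 12 above 0 and 8 below. The called gene was the transcription factor Glis3, at 0.813 to 1.12 CPM in WT and 1.76 to 3.52 CPM in N-LKO livers. Its counts were low, 13 to 21 in WT and 31 to 53 in N-LKO livers. Glis3 had a log2 fold change of 1.43 (SE 0.259, adjusted p = 0.0263 from edgeR), and the call was lost with limma-voom and without WT 2, WT 3, WT 4, N-LKO 3 or N-LKO 4 (adjusted p of edgeR up to 0.0944).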

How the data were processed

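RNA from the livers of 4 WT and 4 N-LKO animals was depleted of rRNA and sequenced, with a library kit that the labels name as TrueSeq Small RNA. The authors deposited expected counts, that is fractional estimates of the reads of each gene, with no scaling. Their paper names TopHat2 and cuffdiff and the submitters' processing notes name STAR, Partek and mm9, while the deposited coordinates of all 34 genes matched GENCODE M21 on GRCm38. Which program and annotation gave the counts, and whether strand was used, is not given in the sources used here. Reads of overlapping genes could have been split, and 9 of the 34 genes share exon bases with another gene, Rhbg (1190), Ctnnb1 (782), Sds (501) and Nags (443) with the most.

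Counts were rounded and columns assigned to mice by their labels. With edgeR 4.0.16 in R 4.3.3, genes were kept by filterByExpr (minimum count 10, minimum total 15), scaled by TMM and tested by the quasi-likelihood test with genotype as the only term; the SE was obtained by dividing the log2 fold change by the root of F. A prior count of 2 was used for log2 CPM. The code was tested on simulated data. No 2 libraries of a group agreed within sampling noise. The depth of 14688404 to 18585412 counts makes values near 3 counts imprecise.

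The 34 genes and all other lists were chosen with earlier results of these data known, so no p was computed for a list. Values per mouse are given for called genes, genes without overlap between genotypes and a fixed set (Glul, Axin2, Lgr5, Oat, Cps1, Ass1, Arg1, Otc, Gls2 and Sds), and up to 3 genes with the lowest p from each other list are named with any called. Alternatives were DESeq2 1.42.0, limma-voom (limma 3.58.1), blocks by replicate number or by library name, RLE scaling, library totals, a filter of 10 or more counts in each mouse or none, each mouse left out, and, for the zone means, a prior count of 0.5, medians and other gene choices. Of marker lists not described above, 0 of 11 Kupffer cell, 0 of 2 tested lymphocyte and neutrophil, and 0 of 5 tested erythroid genes were called by edgeR or DESeq2, with 1, 0 and 1 at an unadjusted p of edgeR under 0.05.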

Additional observations from a re-analysis of the deposited data

Results flagged for a closer look

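In groups of 4 livers, a mouse far from the other 3 was looked for by the gap to its nearest neighbour over the range of the group. Among 72 groups, chance would give 3.6 such mice, about 1 in 20, and 2 were found, both N-LKO 2. Its log2 CPM of Slc13a3 was 2.47, against 2.98 to 3.02 in the other N-LKO livers, and its log2 CPM of Nags, the gene of the enzyme that makes the activator of Cps1, was 4.17, against 4.63 to 4.72. Without N-LKO 2, the log2 fold change was 1.23 for Slc13a3 and 0.32 for Nags.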

How the results depend on the processing

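The 2 pericentral calls fell to 1 (Slc13a3) with limma-voom, the replicate block and a minimum of 10 counts in each mouse, to 0 with the block by library name, and were 1 to 2 without 1 mouse. The other pericentral genes called were 2 with DESeq2 and 0 to 1 without 1 mouse, and the other periportal genes 2 with the block by library name, 3 with DESeq2 and 0 to 2 without 1 mouse. Nitrogen genes called were 1 with the block by library name, 1 with DESeq2 and 0 to 1 without 1 mouse, and regulators 0 with the replicate block, 0 with limma-voom and 0 to 1 without 1 mouse. Over all genes 148 calls became 98 with at least 10 counts in every mouse, where fewer genes were tested, 394 with DESeq2 and 71 to 173 without 1 mouse, the fewest without WT 4 and fewer also without WT 2 (83), WT 3 (91) and N-LKO 3 (76). Title numbers did not pair the mice (correlations of residuals 0.062, -0.085, 0.040 and 0.043, and by library name -0.0092, 0.17, 0.065 and 0.077). With the replicate block 131 genes were called (adjusted p of edgeR 0.0970 for Rhbg), and 113 by library name, where the adjusted p of edgeR was 0.0715 for Rhbg and 0.0514 for Slc13a3. The pericentral minus periportal difference of 0.10 was -0.13 with medians, -0.0079 for genes of at least 5 CPM and -0.093 without Rhbg and Slc13a3, added after seeing the data. Of 46 log2 fold changes, 11 changed sign in some setting, none of them called. Aldh1b1 was at -0.034 with library totals and -0.0023 with no filter. Without 1 mouse they ranged from -0.59 to 0.074 for Tbx3, -0.074 to 0.19 for Lect2, -0.22 to 4.7e-05 for Znrf3, -0.11 to 0.036 for Lgr4, -0.029 to 0.31 for Asl, -0.060 to 0.31 for Cps1, -0.11 to 0.043 for Hal, -0.076 to 0.23 for Sdsl, -0.077 to 0.52 for Tat, -0.20 to 0.30 for Aldh1b1 and -0.035 to 0.13 for Pigr. The cause was not tested. Low counts limit what can be said of Rhbg, Slc13a3, Sp5 and Nkd1. The same holds for Wnt9b, with 6 to 18 counts per liver, and for Krt19, Glis3, Epcam, Dkk3 and Frzb.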
